A study of Rattus norvegicus with 6 samples.

Results

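Transcripts of 10 genes that the glucocorticoid receptor is well known to regulate were followed in rat neuronal progenitor cells given corticosterone or vehicle. The genes were Fkbp5, Tsc22d3, Sgk1, Ddit4, Zbtb16, Dusp1, Nfkbia, Glul, Pdk4 and Ndrg2, and every probe set that the platform annotation pairs with 1 of these symbols alone was taken. This gave 15 probe sets of 9 genes, out of 31099 probe sets of 14217 genes. Zbtb16 was paired with no probe set and was not analysed here. The cells, dividing precursors of neurons and glia, came from the cerebral cortex of rat embryos at E15.5. They were grown on fibronectin with 20 ng/ml bFGF, a fibroblast growth factor that keeps them dividing and that both groups received. The 3 corticosterone samples had 1 µM of the hormone for 48 h and the 3 vehicle samples had its solvent, dimethyl sulfoxide (DMSO), for as long. Each sample was read on 1 Affymetrix array, and the samples form 3 couples of 1 vehicle and 1 corticosterone sample. The comparison asks which of the classical targets the hormone changed in these cells.

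Corticosterone is the main glucocorticoid of rodents. It crosses the cell membrane and binds the glucocorticoid receptor, which is held in the cytoplasm by Hsp90 and co-chaperones, moves to the nucleus and binds DNA at palindromic response elements, many of them far from the genes they control. Its targets include brakes on the hormone's own signal, kinases and their regulators, inhibitors of inflammatory signalling and enzymes of fuel and amino acid use, and which of them respond depends on the cell type. In the brain, Glul and Ndrg2 are also known as genes of astrocytes.

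All values are signals on the linear scale that the MAS5 software gives for a probe set, and signals of different probe sets are not comparable as levels. The median signal was 108 to 122 on the vehicle arrays and 124 to 134 on the corticosterone arrays, and 75.3 to 78.1% and 78.3 to 80.6% of probe sets lay above background, shifts whose part in the results was not tested beyond the scalings tried. The arrays of couple 1 stood apart in the added hybridisation controls, whose median signal was 503 and 407 there and 591 to 730 on the other arrays, and in the 3′ over 5′ signal ratio for Actb, which was 1.55 and 1.76 there and 1.9996 to 2.12 elsewhere. Of 11 genes that mark neural progenitors 10 had a probe set, and all 10 lay above the background signal of 22.8, the 95th percentile of control probe sets with no target. Gene names come from the platform annotation, and no genome positions of the probe sets are given.

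Of the 9 targets with a probe set, 8 passed a filter on low signals that left out the dimmest 40% of probe sets, and 6 of these rose with corticosterone while 0 fell (limma, adjusted p under 0.05, with 1 lower at an unadjusted p under 0.05). Ddit4 rose most, followed by Ndrg2, Sgk1, Nfkbia, Glul and Fkbp5. Tsc22d3 and Dusp1 did not pass, and Pdk4 lay below the filter. Across all 9910 genes tested, each by its brightest probe set, 19.5% changed, 11.7% upward and 7.77% downward. Of all probe sets tested 9.4% rose and 6.45% fell, and of the 11 tested here 9 rose and 0 fell. The median log2 fold change of the 8 targets was 0.51, against -0.002 over all genes tested. The targets were chosen with earlier results of these data known. A log2 fold change here is the fitted difference of log2(signal + 28.6) within couples, corticosterone minus vehicle, and it understates the change of dim probe sets. The p-values rest on 3 couples, and limma draws the variance of each probe set toward that of others with like signal. So they do not measure a target's own spread over couples alone. The SD over couples of the log2 difference was 0.03 for Fkbp5 and 0.41 for Sgk1, while the fitted SE was 0.07 and 0.15. The SD describes single couples and the SE the mean over 3 couples, so their sizes are not directly comparable. Nothing states the couples to be separate cultures or animals, and they may be technical. In limma without the couple as a term only Ddit4 passed (adjusted p = 0.0055), while 2.63% of all genes rose, and Fkbp5, Nfkbia, Sgk1, Glul and Ndrg2 had adjusted p = 0.23, 0.061, 0.062, 0.065 and 0.071. Without the trend of variance on intensity Ddit4, Ndrg2 and Nfkbia passed, while 6.29% of all genes rose. Sgk1, Fkbp5 and Glul did not pass there (limma adjusted p = 0.051, 0.057 and 0.083).

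**Figure D1:**
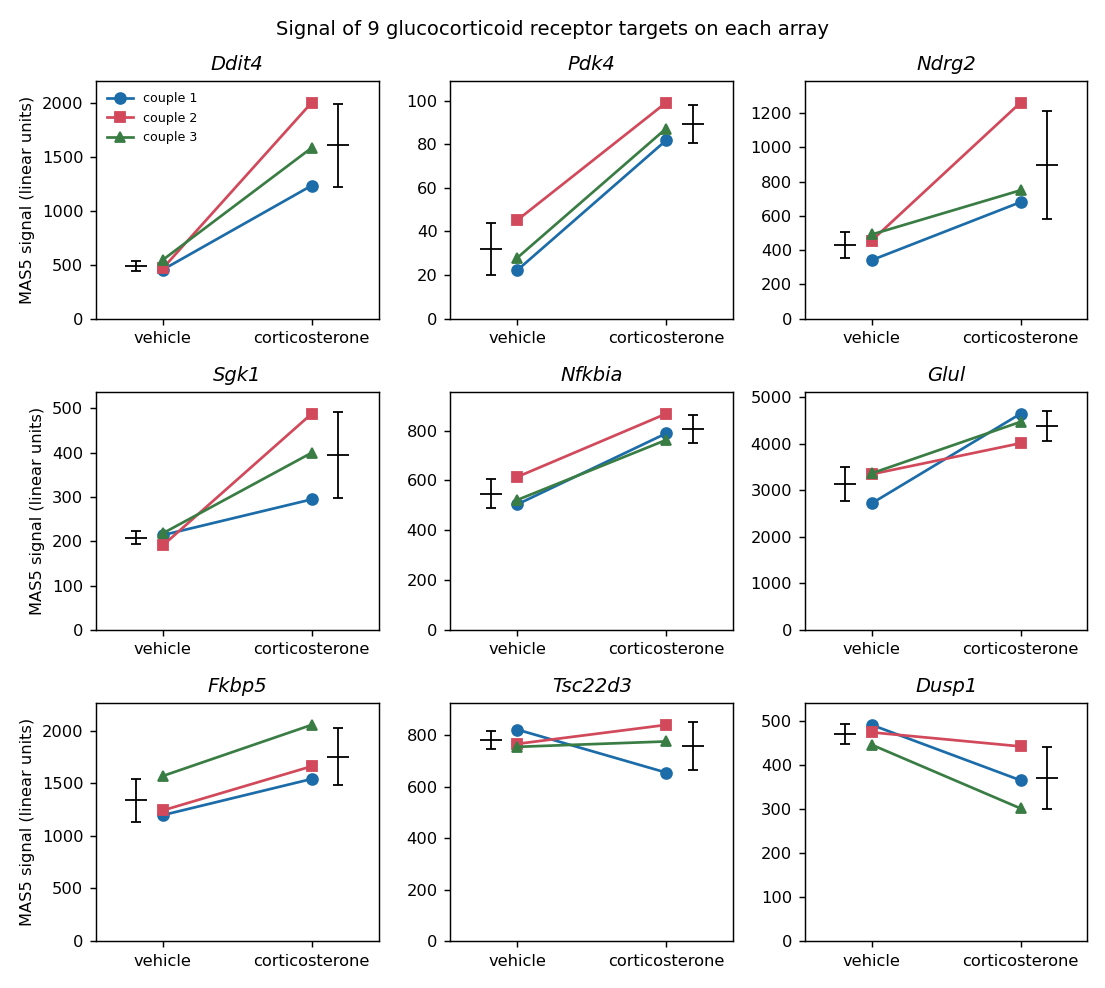
MAS5 signal (linear units, from 0) of the brightest probe set of each of the 9 targets on the vehicle and corticosterone arrays. Lines join the 2 arrays of a couple, and the black bars give mean ± SD of 3 arrays. Lines rise in all 3 couples for 7 genes, cross for Tsc22d3 and fall for Dusp1.

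The regions just upstream of 5 of the targets are shown because they span the range of responses, from the largest rise to no call. They are the 250 bases before a transcription start on assembly GRCr8, from RefSeq, which held 15 starts of the 9 genes. Each sequence runs 5′ to 3′ on the strand of its gene. Capitals mark matches, on either strand, to the GC box GGGCGG, the TATA box TATAAA, the cyclic AMP response element TGACGTCA and the NF-kB site (GGGA and TCC spaced by 3 bases). Ddit4 is at chr20:28437038-28437287 (minus strand), Fkbp5 at chr20:6543556-6543805 (minus), Nfkbia at chr6:78597073-78597322 (minus), Dusp1 at chr10:17184603-17184852 (plus) and the start of Tsc22d3 that lies farthest along the gene of 3 at chrX:109010035-109010284 (minus).
Ddit4: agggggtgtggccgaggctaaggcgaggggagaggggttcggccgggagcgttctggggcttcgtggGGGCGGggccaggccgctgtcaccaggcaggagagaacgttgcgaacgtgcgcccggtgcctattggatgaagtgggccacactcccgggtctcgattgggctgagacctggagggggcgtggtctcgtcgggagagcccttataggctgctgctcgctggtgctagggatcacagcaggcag
Fkbp5: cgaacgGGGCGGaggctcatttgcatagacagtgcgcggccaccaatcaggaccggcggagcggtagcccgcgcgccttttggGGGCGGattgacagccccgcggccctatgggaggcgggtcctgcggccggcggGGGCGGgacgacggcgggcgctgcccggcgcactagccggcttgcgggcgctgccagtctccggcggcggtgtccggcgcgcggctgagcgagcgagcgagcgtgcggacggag
Nfkbia: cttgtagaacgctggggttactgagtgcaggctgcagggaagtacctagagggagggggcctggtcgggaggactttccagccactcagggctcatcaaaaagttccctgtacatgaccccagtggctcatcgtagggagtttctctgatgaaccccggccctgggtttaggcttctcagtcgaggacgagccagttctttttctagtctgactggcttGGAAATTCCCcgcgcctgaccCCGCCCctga
Dusp1: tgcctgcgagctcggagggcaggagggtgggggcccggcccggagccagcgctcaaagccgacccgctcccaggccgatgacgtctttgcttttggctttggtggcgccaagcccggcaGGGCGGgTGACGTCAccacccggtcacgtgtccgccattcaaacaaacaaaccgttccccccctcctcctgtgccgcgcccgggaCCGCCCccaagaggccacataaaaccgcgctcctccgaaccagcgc
Tsc22d3: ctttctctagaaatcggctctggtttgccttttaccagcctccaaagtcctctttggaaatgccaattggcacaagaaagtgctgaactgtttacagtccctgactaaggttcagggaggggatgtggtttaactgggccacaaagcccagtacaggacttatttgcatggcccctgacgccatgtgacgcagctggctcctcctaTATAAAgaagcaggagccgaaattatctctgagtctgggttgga

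The palindromic glucocorticoid response element (AGAACA and TGTTCT spaced by 3 bases) was in 0 of the 15 windows and in 0.012% of all 33469 windows of this length. Its relaxed form (GNACA and TGTNC spaced by 3 bases) was in 0 of 15 and 0.373% of all, and the hexamer TGTTCT, contained in the first, in 0 of 15 and 17.5% of all. So these letters are not in the windows, which says nothing of elements elsewhere. A GC box was in 13 of the 15 windows, with at least 1 in each of the 9 genes, against 30.5% of all windows. A TATA box was in 4 windows, those of Ndrg2, Tsc22d3 and Sgk1 (12.9% of all). The cyclic AMP response element was found for Dusp1 (1.59% of all), between bases -124 and -117 from the start, and the NF-kB site for Nfkbia (3.38% of all), between bases -31 and -22. A match is a match of letters, and binding was not measured.

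Fkbp5 encodes FKBP51, an Hsp90 co-chaperone that lowers the hormone affinity of the receptor, and its induction is a known brake on the glucocorticoid signal. Its brightest probe set gave 1196, 1241 and 1568 with vehicle in couples 1, 2 and 3, and 1540, 1660 and 2054 with corticosterone. The groups overlapped, since the vehicle array of couple 3 lay above the corticosterone array of couple 1, yet each couple rose by nearly the same step. Those steps were 1.29-fold, 1.34-fold and 1.31-fold in signal. Fitted over couples, the log2 fold change was 0.38 ± 0.07 (SE; adjusted p in limma = 0.0040), and its SD over the 3 couples, 0.03, was the smallest among the probe sets of the targets. The other probe set, with signals of 858, 723 and 707 against 1072, 999 and 918, rose by 0.38 ± 0.08 (SE; adjusted p = 0.011), and its groups did not overlap.

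Ddit4 encodes REDD1, which restrains the growth-promoting kinase complex mTORC1 and is also induced by hypoxia and other stress. Its single probe set gave 454, 466 and 545 with vehicle and 1232, 2001 and 1582 with corticosterone. Each corticosterone value was more than double the highest vehicle value, and the steps within couples were 2.71-fold, 4.29-fold and 2.90-fold. The fit gave a log2 fold change of 1.64 ± 0.12 (SE; adjusted p in limma = 1.6e-05), which placed Ddit4 63rd from the top of the 9910 genes tested.

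Sgk1 encodes a kinase of the AGC family that acts on ion channels and transporters, and it was named for its induction by serum and glucocorticoid. Its probe set gave 214, 191 and 218 with vehicle, a narrow range, and 295, 488 and 399.9 with corticosterone. The corticosterone signals were higher on all 3 arrays and far more spread. The steps ran from 1.38-fold in couple 1 to 2.56-fold in couple 2, with 1.83-fold in couple 3, and the log2 fold change was 0.82 ± 0.15 (SE; adjusted p in limma = 0.0044). Without couple 2 it was 0.61 and did not pass (adjusted p = 0.069).

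Nfkbia, Tsc22d3 and Dusp1 are the targets known for restraining inflammatory signalling, and they did not move alike. Nfkbia encodes IκBα, which holds NF-kB in the cytoplasm. It went from 504, 614 and 522 to 789, 868 and 763, so the groups did not overlap. It rose in log2 signal by 0.54 ± 0.09 (SE; adjusted p in limma = 0.0021), with steps of 1.57-fold, 1.41-fold and 1.46-fold.

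Tsc22d3 encodes GILZ, a leucine zipper protein that binds NF-kB and AP-1 and is often used as a readout of receptor activity. Its probe set gave 823, 767 and 755 with vehicle and 655, 841 and 776 with corticosterone. It was lower in couple 1 and slightly higher in the others, so the direction differed among couples. The log2 fold change was -0.05 (95% interval -0.27 to 0.17; limma adjusted p = 0.79), and 0.08 without couple 1 (adjusted p = 0.74). The interval rests on the 3 couples and on a variance that limma draws toward that of other probe sets. The SD of the change over couples was 0.23. The upper bound lies below the fitted change of each of the 6 targets that rose, but gaps between genes were not tested. RefSeq lists 3 starts for Tsc22d3, and which transcripts the 1 probe set detects was not tested.

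Dusp1 encodes MKP-1, a phosphatase that switches off the MAP kinases p38 and JNK, and it is an immediate early gene as well as a receptor target. Its brighter probe set gave 491, 474 and 446 with vehicle and 365, 442 and 301 with corticosterone. All 3 corticosterone values lay below all 3 vehicle values, as for 11.4% of all genes tested. The log2 fold change was -0.34 ± 0.12 (SE; adjusted p in limma = 0.070). It was called lower (-0.45, adjusted p = 0.020) when each array was centred on its median, a scaling that moved the median log2 fold change of all genes to -0.11 and raised the share of genes that fell to 18.3%. The dimmer probe set, below the filter, gave 88.0, 66.0 and 73.0 against 58.0, 35.1 and 63.8, again without overlap.

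**Figure D2:**
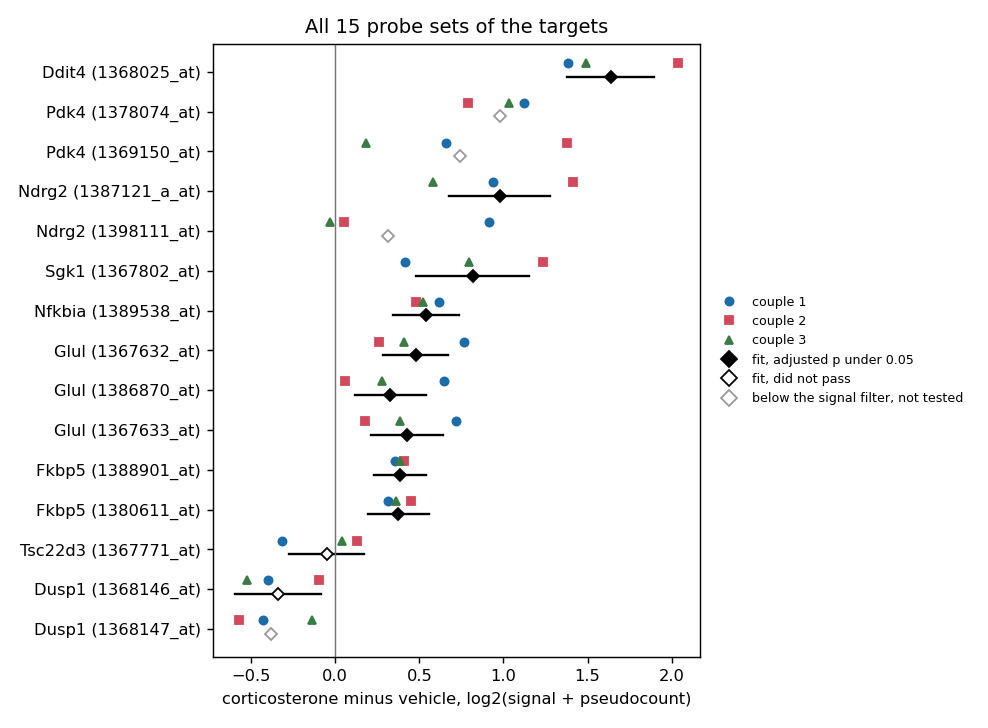
Difference of log2(signal + pseudocount), corticosterone minus vehicle, for each of the 15 probe sets. Coloured points are the 3 couples, diamonds the fitted mean with its 95% interval, filled where the adjusted p was under 0.05 and grey where the probe set was below the filter. Points of Fkbp5 lie close together, and those of Sgk1 and Ndrg2 lie far apart.

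Glul and Pdk4 are the metabolic enzymes of the set. Glul encodes glutamine synthetase, which turns glutamate and ammonia into glutamine. Its brightest probe set rose from 2722, 3349 and 3367 to 4649, 4015 and 4475, with no overlap (log2 fold change 0.48 ± 0.09, SE; adjusted p in limma = 0.0038). The steps were 1.71-fold, 1.20-fold and 1.33-fold, so couple 1 moved most and couple 2 least. The other 2 probe sets, read in the same libraries, had the same order of couples and rose by 0.43 and 0.33 (adjusted p = 0.013 and 0.041). In the smallest case, couple 2 of the third probe set, the step was 1.04-fold.

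Pdk4 encodes a mitochondrial kinase that inhibits pyruvate dehydrogenase and so spares glucose. Its 2 probe sets were dim and below the filter. The brighter gave 22.2, 45.2 and 27.9 with vehicle, 1 of them at background, and 81.8, 99.1 and 87.2 with corticosterone. The groups did not overlap, and the steps in couples 2 and 3 were 2.19-fold and 3.12-fold, with none given for couple 1, whose vehicle signal was at background. The other gave 36.2, 8.24 and 59.6, 1 of them at background, against 73.6, 67.2 and 71.3, also without overlap. Its steps were 2.03-fold in couple 1 and only 1.20-fold in couple 3, with none given for couple 2, whose vehicle signal was at background. When no filter was applied the brighter probe set had a log2 fold change of 0.98 ± 0.21 (SE; adjusted p in limma = 0.037), while 3.99% of all probe sets rose, and the other had 0.74 ± 0.27 (adjusted p = 0.17).

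Ndrg2 encodes a member of the NDRG family of proteins with an alpha/beta hydrolase fold, abundant in astrocytes. Its brighter probe set gave 342, 456 and 491 with vehicle and 680.1, 1261 and 749 with corticosterone. All 3 corticosterone signals were above all vehicle signals, as for 14.8% of all genes tested, and that of couple 2 stood well above the others. The log2 fold change was 0.98 ± 0.14 (SE; adjusted p in limma = 6.9e-04), with steps of 1.99-fold, 2.76-fold and 1.53-fold. The second probe set was at background on 5 of 6 arrays and gave no measure of the gene.

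Astrocyte markers rose in the same samples as Glul and Ndrg2. Of 8 listed markers other than these genes 4 were tested, and S100b, Gja1 and Aldoc rose, by 1.80, 0.96 and 1.60 (limma adjusted p = 2.8e-05, 2.8e-05 and 9.2e-05), while in 6 of 8 every corticosterone signal lay above every vehicle signal. Of all genes tested 11.7% rose and 14.8% were so separated, a share without dim genes, whereas the 6 include markers below the filter. In limma without the couple as a term Gja1 did not pass (adjusted p = 0.052), and on the mean of its probe sets it rose by 0.57. Gfap, the astrocyte filament, was at 50.3 ± 8.19 (SD, n = 3 arrays) and 98.9 ± 66.8 and did not pass (adjusted p = 0.13). Gjb6 was at background on all 6 arrays. The summed signal of the 8 was 5871 to 8700 with vehicle and 12403 to 17633 with corticosterone. The part of these markers in the Glul and Ndrg2 results was not tested. In such bulk samples, more cells of a type and more RNA per cell cannot be told apart.

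Markers of other cell types were summed in the same way, beside 11.7% higher and 7.77% lower among all genes tested. The summed signal of 10 progenitor markers was 67725 to 83477 with vehicle and 80007 to 88691 with corticosterone, with Nes and Slc1a3, the latter also an astrocyte gene, called higher. That of 10 meningeal, pericyte and fibroblast markers was 512 to 1842 and 1531 to 3823, of which 3 of 5 tested rose, and that of 8 neuronal markers 13305 to 14720 and 11601 to 14158, of which 1 of 7 tested fell. The 6 oligodendrocyte markers summed to 3531 to 7180 and 2851 to 4732, with 2 of 4 tested lower. The 3 endothelial ones summed to 21.0 to 80.7 and 68.3 to 120, and all lay below the filter and were not tested. Their lowest sum, 21.0, is under the background signal of 1 probe set, 22.8, so these sums are near the floor. The 5 microglial ones summed to 133 to 145 and 186 to 205, with Itgam at background throughout and 0 of 1 tested called. In limma without the couple as a term 0 progenitor, 0 neuronal and 0 oligodendrocyte markers passed and 1 of the meningeal list did. With 1 couple left out, whichever it was, 1 progenitor marker rose, and 1 oligodendrocyte marker fell without couple 1. The neuronal marker was not called without couple 2, and without couple 3, 1 neuronal marker rose and 1 fell. Of the meningeal list 2 rose without couple 2 and 4 without couple 3. Without the intensity trend 1 of the meningeal list rose, 1 oligodendrocyte marker fell, and 0 progenitor and 0 neuronal markers passed. Their part in the targets' changes was not tested.

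The largest change fell in different couples for different targets, and for Fkbp5 the couples were nearly even (0.36, 0.41 and 0.38). Of the 6 targets that rose, Ddit4, Fkbp5, Ndrg2 and Sgk1 had their largest change in couple 2, and Glul and Nfkbia in couple 1. Among all 1158 genes that rose, the largest change was in couple 1 for 57.4%, in couple 2 for 31% and in couple 3 for 11.6%. The difference between couples was not tested, as each holds 1 array per treatment. The median change of the 6 targets was 0.69, 0.86 and 0.55 in couples 1, 2 and 3, beside 0.73, 0.62 and 0.47 over all genes that rose.

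In order of log2 fold change the targets ran Ddit4, Ndrg2, Sgk1, Nfkbia, Glul, Fkbp5, Tsc22d3 and Dusp1. Ddit4 exceeded Ndrg2 in all 3 couples, by 0.66 ± 0.23 (SD over 3 couples). From Ndrg2 down to Fkbp5 each neighbour differed from the next by less than the SD over couples, and in 2 of 3 couples only did the order hold. Fkbp5 exceeded Tsc22d3 in all 3 couples, by 0.43 ± 0.21, and Tsc22d3 exceeded Dusp1 by 0.29 ± 0.25. The fits of single genes do not test these gaps.

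A further 36 genes known to be induced by glucocorticoids in some tissue were listed, of which 35 had a probe set and 23 passed the filter. Of the 23, 12 rose, 1 fell and 10 did not pass, with a median log2 fold change of 0.54, beside 11.7% higher and 7.77% lower among all genes tested. The list was chosen with earlier results of these data known, so its counts are not independent of them. Anxa1, an annexin with a role in resolving inflammation, had the largest change and went from 45.8, 232 and 61.2 to 739, 1092 and 223 (log2 fold change 2.32 ± 0.26, SE; adjusted p in limma = 2.0e-04). The groups overlapped, and the steps ran from 16.1-fold in couple 1 to 4.70-fold and 3.65-fold. Sdc4, a heparan sulphate proteoglycan of focal adhesions, rose from 149, 246 and 171 to 741, 1174 and 634 (1.99 ± 0.12, SE; adjusted p = 6.6e-06), and the groups were well apart.

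The next were Errfi1, Hsd11b1 and Per1, in each of which every corticosterone signal lay above every vehicle signal. Errfi1, which restrains the epidermal growth factor receptor, rose 3.78-fold, 5.11-fold and 3.40-fold in couples 1, 2 and 3. Per1, of the circadian clock, rose 3.27-fold, 3.43-fold and 2.48-fold, the most even of these. Rhob, a small GTPase, was the 1 gene that fell, from 4428, 5384 and 5068 to 3110, 3320 and 3856 (-0.53 ± 0.07, SE; adjusted p in limma = 5.2e-04). The other 7 that rose were Nedd9, Klf9, Mt2A, Klf15, Cdkn1a, Cebpd and Tiparp, with log2 fold changes from 0.93 down to 0.29.

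In limma without the couple as a term 5 of the 23 rose and 0 fell, beside 2.63% and 0.363% of all genes. Anxa1, Klf9 and Rhob did not pass there (limma adjusted p = 0.090, 0.60 and 0.051). Without couple 2 the calls of Klf15, Mt2A, Cebpd and Tiparp ended (limma adjusted p = 0.15, 0.11, 0.27 and 0.22), and those of Cebpd and Tiparp also without couple 1 (0.16 and 0.15). On the mean of a gene's probe sets 9 of 21 tested rose, beside 10.4% of all genes. Klf15 and Tiparp, at 0.39 and 0.22, did not pass there (limma adjusted p = 0.17 and 0.11), and Cebpd was not tested. The mean of Klf15 includes a probe set at background on all 6 arrays. The dimmer probe sets of Cebpd, below the filter, disagreed, with log2 fold changes of -0.61 and 1.17. The second of these had all 3 vehicle signals at background. The call of Cebpd also ended with quantile normalization (limma adjusted p = 0.088), and those of Cebpd and Tiparp with median centring (0.073 and 0.15). Without the intensity trend 8 of the 23 rose, beside 6.29% of all genes. Of the 35 with a probe set 5 were at background on all 6 arrays. Tat, an amino acid-degrading enzyme of liver, Trim63, a ubiquitin ligase of muscle atrophy, Hif3a, Ptgds and Gjb6 (also on the astrocyte list) made up the 5. Mertk, a receptor for the clearance of dying cells, was below the filter and had vehicle signals of 17.0, 14.9 and 6.85, all at background, and corticosterone signals of 73.0, 54.9 and 25.9. Mertk and Angptl4, the latter at 18.6 ± 15.8 and 52.4 ± 11.2 (SD, n = 3 arrays), fell outside the rule for naming and were chosen after their values were seen.

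**Figure D3:**
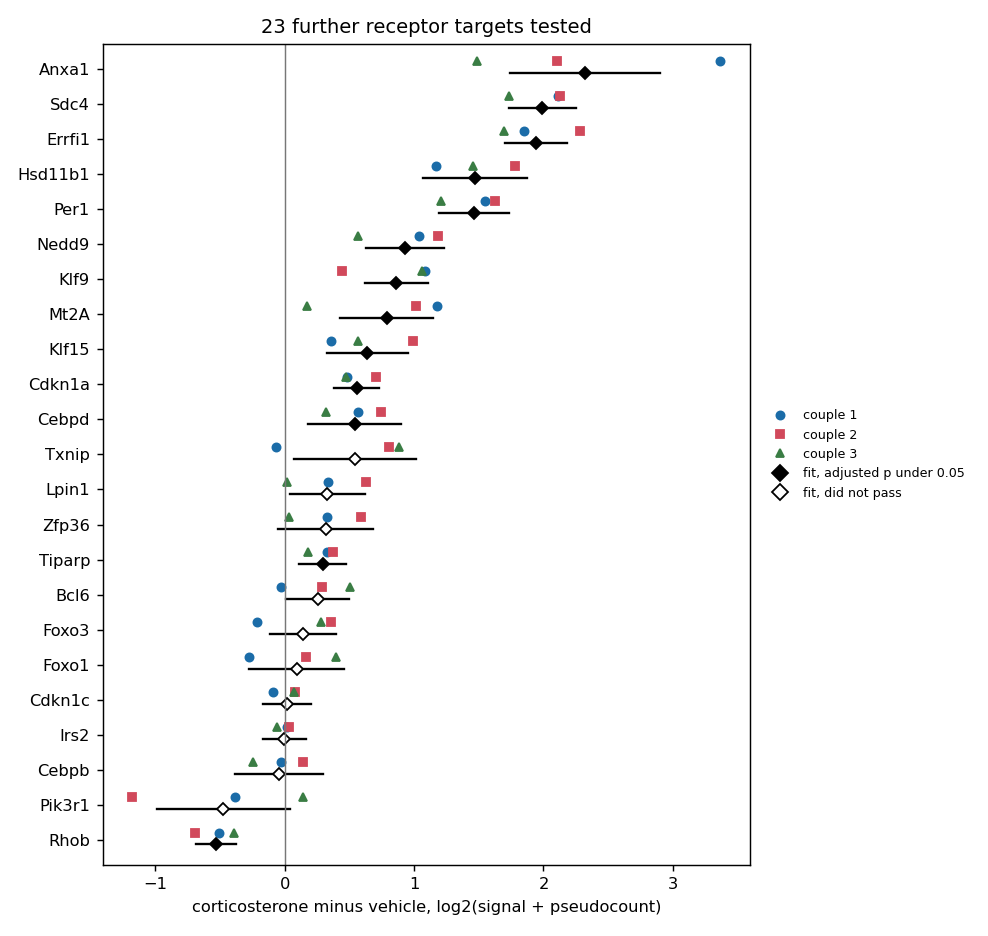
The same differences for the 23 further targets that passed the filter, ordered by fitted log2 fold change, with the 3 couples as coloured points and the fit as diamonds with 95% intervals. Filled diamonds mark the 12 genes that rose and Rhob, which fell, and Anxa1 has the widest spread among couples.

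Relatives of the targets by gene family or pathway were looked at in the same fit. Of 28 relatives 26 had a probe set and 24 were tested, of which 6 rose, 2 fell and 16 did not pass, with a median log2 fold change of 0.09. These counts are 25% higher and 8.33% lower, beside 11.7% and 7.77% of all genes tested, so the share that fell was near the background. The Hsp90 co-chaperone Fkbp4, which helps the receptor reach the nucleus, fell from 2095, 2137 and 2356 to 1775, 1708 and 1967 (-0.27 ± 0.07, SE; adjusted p in limma = 0.020). It was lower in each couple, by -0.24, -0.32 and -0.26, whereas Fkbp5 was higher in each, by 0.36, 0.41 and 0.38. Other members of the Fkbp family, Fkbp1a, Fkbp3 and Fkbp8, had log2 fold changes between -0.07 and 0.06 and did not pass.

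Ddit4l, the close relative of Ddit4, rose from 128, 230 and 115 to 593, 350 and 312 (1.26 ± 0.21, SE; adjusted p in limma = 0.0024). Its largest step was in couple 1, while that of Ddit4 was in couple 2. Pdk2, a broadly expressed kinase of pyruvate dehydrogenase, rose from 262, 468 and 387 to 408, 850 and 648 (0.71, adjusted p = 8.8e-04), while Pdk1 and Pdk3 did not pass. In the family of Tsc22d3, which itself did not pass, Tsc22d1 and Tsc22d4 rose by 0.37 and 0.58 and Tsc22d2 fell (-0.41; adjusted p = 0.0036, 0.0034 and 0.028). The probe sets of Tsc22d1 and Tsc22d4 disagreed, and on the mean of a gene's probe sets neither passed in limma (adjusted p = 0.97 and 0.089). The phosphatase Dusp5 rose by 0.61 and Glud1, a mitochondrial enzyme that breaks down glutamate, by 0.34 (adjusted p = 0.018 and 0.019).

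In limma without the couple as a term 0 of 24 passed, with adjusted p = 0.061 for Ddit4l, 0.21 for Fkbp4 and 0.25 for Pdk2. Without couple 1, 4 rose and 0 fell, and without couple 2, 3 rose and 0 fell. Of all genes 7.35% rose and 3.95% fell without couple 1, and 5.5% and 2.69% without couple 2. Tsc22d2 was at -0.25 without couple 1 (limma adjusted p = 0.21) and lost its call without couple 2 too (0.15). Dusp5 and Glud1 did not pass without couple 1 (limma adjusted p = 0.092 and 0.065) or couple 2 (0.15 and 0.20), nor Tsc22d1 without couple 2 (0.068). The call of Fkbp4 ended whichever couple was left out (limma adjusted p from 0.054 to 0.15).

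**Figure D4:**
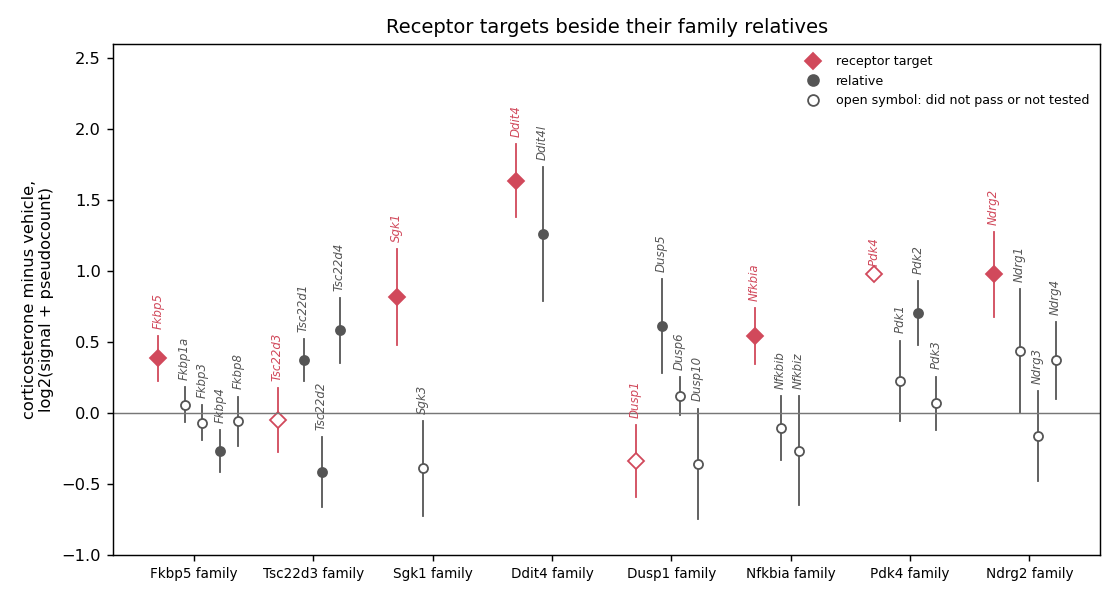
Fitted log2 fold change with 95% interval for 8 targets (diamonds) beside those of their tested relatives that are family members (circles). Filled symbols passed at an adjusted p under 0.05. Pdk4 has no interval because it was below the filter, and Fkbp5 and Fkbp4 lie on opposite sides of 0.

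The receptor gene Nr3c1 gave 1064, 862 and 843 with vehicle and 812, 813 and 751 with corticosterone (log2 fold change -0.21 ± 0.09, SE; adjusted p in limma = 0.15). It was at -0.31 and called lower with median centring (adjusted p = 0.044), at -0.12 without couple 1 (0.60) and at -0.13 on the mean of its probe sets (0.51). Hsd11b1, which regenerates corticosterone inside cells, rose from 46.0, 51.0 and 64.8 to 139, 245 and 228 (1.47 ± 0.18, SE; adjusted p = 3.4e-04). Its vehicle mean of 53.9 lay under the filter level of 63.6, so it was tested only through its corticosterone signals. Under the stricter filter of 60% it was not tested. Nr3c2, on the same list, was below the filter, at 18.6, 29.4 and 29.7 with vehicle and 35.1, 40.9 and 54.1 with corticosterone. With no filter it did not pass (limma adjusted p = 0.33). Hsd11b2 gave 82.2, 53.3 and 90.8 against 50.1, 55.8 and 63.9 and did not pass (-0.27 ± 0.21, SE; limma adjusted p = 0.43).

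The genes whose log2 signals ran most like those of Ddit4 over the 6 arrays were Chst1, Usp54 and Hsd11b1, with Pearson r of 0.995, 0.995 and 0.993. They rose by 1.11, 0.98 and 1.47 on the log2 scale. Those most like Fkbp5 were Hk1, Txn2 and Lrrn2 (r of 0.989, 0.989 and 0.984), with log2 fold changes of 0.32, 0.11 and 0.48. Of these Txn2 did not pass (limma adjusted p = 0.017, 0.35 and 0.0018). These r values were picked as the highest among all genes tested, and the arrays share treatment and couple.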

How the data were processed

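Total RNA of 3 vehicle and 3 corticosterone samples was labelled from 3 µg by oligo(dT) priming, per the labels' protocols, which favours the 3′ end of transcripts. The authors deposited 1 linear signal intensity for each probe set, made with MAS5, per the submitters' processing notes. No source used here gives its version or settings. The mean without the lowest and highest 2% was 500.2 on every array. The 57 control probe sets were left out of tests. The platform annotation gave 1 symbol for 20826 of the other probe sets, several for 436 and none for 9780, and the last 2 kinds named no gene.

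Signals became log2(signal + 28.6), the 25th percentile of all values. The dimmest 40% (mean signal under 63.6) were left out, leaving 18625 probe sets, of which 15.9% passed. The model, in limma 3.58.1 (R 4.3.3), held treatment and couple, with a variance trend on intensity and two-sided Benjamini-Hochberg adjusted p-values over all 18625. The brightest probe set stood for a gene. The fit was tested on simulated data.

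The couple was a term because the series' design text names couples. Deviations of same-numbered samples correlated by 0.57, 0.52 and 0.35 across probe sets, and those of other pairs by -0.48 to 0.003, which is partly arithmetic. The targets and lists were chosen with earlier results of these data known. Named were all targets, the 5 further targets with the largest called change and all that fell, called relatives, and the 3 genes most like Ddit4 and Fkbp5. The alternatives for Hsd11b1, Per1, Errfi1, Nr3c1 and Fkbp4 were added after seeing the data. The number of arrays limits precision. The alternatives changed the pseudocount, filter, scaling, couple term, intensity trend, couples used and the summary of probe sets.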

Additional observations from a re-analysis of the deposited data

How the results depend on the processing

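With the couple term dropped (no replicate block) 1 of the 8 targets rose instead of 6, and 5 of the further targets rose instead of 12 and 0 fell instead of 1. Without the intensity trend 3 targets rose. With each array centred on its median 1 target, Dusp1, was called lower instead of 0, and 31.4% of all called genes were higher, against 60.1% with the deposited scaling. The log2 fold change of Tsc22d3 turned from -0.05 to a range of -0.14 to 0.083 with 1 couple left out, being above 0 without couple 1. With 1 couple left out 5 to 6 targets rose and 0 fell, and 8 to 13 further targets rose and 1 fell. Of the relatives, 6 rose and 2 fell, which became 2 and 0 without the intensity trend, 4 and 1 with no filter, 4 and 2 on the mean of probe sets and 5 and 3 with median centring. Over all genes tested, 1158 rose and 770 fell, which became 261 and 36 without the couple term, 623 and 176 without the trend, 828 and 1811 with median centring, 829 and 410 with no filter, 728 and 391 without couple 1, and 545 and 267 without couple 2. Under pseudocounts of 1 and 100, the stricter filter of 60%, quantile normalization and the mean of a gene's probe sets, 6 targets rose and 0 fell. On that mean 10.4% of all genes rose and 6.32% fell. Dropping the filter gave 7 targets, with Pdk4, while 5.83% of all genes rose. Over 14 genes and 12 alternatives, 138 of 156 values kept their direction and side of the threshold, 14 lost the call, 3 gained it and 1 turned sign. Causes of these changes were not tested. The noise of dim MAS5 signals limits Pdk4, Mertk and Angptl4.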
